A study of Sus scrofa with 6 samples.

Results

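The genes described here belong to the large families of E3 ubiquitin ligases and ligase subunits that were measured in pig longissimus muscle. They were chosen by name from the authors' deposited gene table: every record whose symbol begins with FBXO, FBXL, FBXW or KBTBD, or with TRIM, ASB, KLHL, CUL, RNF or MARCH followed by a digit. The rule found 108 records with 107 symbols among 7661 listed genes. RNF20 accounts for the difference, with 1 record on chromosome 1 and another on an unplaced scaffold. The families contributed 38 RNF, 15 KLHL, 13 FBXO, 12 TRIM, 11 ASB, 6 KBTBD, 5 FBXL, 4 FBXW and 4 CUL records. The MARCH family contributed 0 records under its deposited symbols. The naming rule itself used no expression value. It was set with earlier results of these data known, and the table lists only genes above a minimum level.

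The study sequenced RNA from the longissimus dorsi, the long muscle of the back, of 3 pigs with a high and 3 pigs with a low content of intramuscular fat, which is the fat stored within the muscle. The 2 groups are called high and low below, and each pig gave 1 library. Total RNA was made into Illumina TruSeq libraries. The sources used here do not give breed, sex, age, diet or the fat contents themselves. The question the design poses is how muscle gene expression differs between the groups.

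An E3 ligase picks the protein to which ubiquitin is attached, and chains of ubiquitin send many proteins to the 26S proteasome for breakdown. Cullins are scaffolds for modular ligases: CUL1 carries F-box receptors (FBXO, FBXL, FBXW), CUL3 carries BTB-kelch receptors (KLHL, KBTBD), and CUL5 carries SOCS-box receptors such as the ASB proteins. Most TRIM and RNF proteins instead hold a RING domain that binds the ubiquitin-conjugating enzyme directly. In skeletal muscle the system is known above all for FBXO32 (atrogin-1, also MAFbx) and TRIM63 (MuRF1), whose transcripts mark muscle wasting, and for receptors that maintain the sarcomere.

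Library totals ran from 25371989 to 28874691 reads in the high group and from 30139025 to 34813172 reads in the low group. The table lists genes above 10 CPM, counts scaled to the library total, in 3 or more libraries, and less abundant ligases were not analysed here. The skeletal muscle markers summed to 132519 to 141498 CPM in the high and 132829 to 136335 CPM in the low libraries, with 13 of 20 matched by symbol. All 14 fibroblast markers were matched, in 17 records, and all 17 had a higher fitted level in the high group. Their sum was 3905 to 5306 CPM in the high and 1852 to 3245 CPM in the low libraries. The 8 matched adipocyte markers summed to 315 to 648 CPM in the high and 253 to 396 CPM in the low libraries. Of these, 6 had a higher fitted level in the high group. At an unadjusted p under 0.05, 5 were higher (10.3% of all genes) and 1 lower (8.41% of all genes). PLIN1 alone passed edgeR's quasi-likelihood test (adjusted p = 0.0404), beside 0.144% of all genes. Of the matched endothelial marker records 3 of 6 had a higher fitted level in the high group, and of the macrophage marker records 2 of 7. The part of these cell types in the results below was not tested.

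No ligase gene passed the test between the groups, and the family members as a whole were placed like other genes. By edgeR's quasi-likelihood test with Benjamini-Hochberg adjustment over all genes, 0 of the 108 records had an adjusted p under 0.05, where 0.144% of all genes did. At an unadjusted p under 0.05 there were 17 records, or 15.7%, against 18.7% of all genes. Of these, 8 were higher in the high group (10.3% of all genes) and 9 were lower (8.41% of all genes). Without high library 2 the counts were 5 and 4, without low library 1 the first was 13, and without low library 2 the second was 5. Shares of all genes were not counted in these refits, so the shifts may not be particular to the ligase genes. DESeq2 called 2 records, KLHL15 and ASB4, where it called 6.76% of all genes. The edgeR exact test called 1, KLHL15, where it called 4.12% of all genes. The whole-muscle libraries average over all cells, so fewer cells of a type and less RNA per cell cannot be told apart. Each group is 3 pigs, and the p-values set the difference between the groups against the spread between these animals. The fit estimates that spread with the help of all genes.

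The log2 fold changes, given throughout as high minus low, had a median of -0.04 over the 108 records and of -0.04 over all genes. The middle 50% of the records lay between -0.19 and 0.23, and of all genes between -0.21 and 0.21. A fitted value above 0 was found for 49 records, 45.4% of them, beside 45.2% of all genes. For 15 records, 13.9%, the value lay 0.5 or more from 0 in either direction, beside 14% of all genes. The values ran from -0.87 for TRIM5 to 0.99 for KLHL15. By family the medians were 0.20 for FBXL, 0.08 for FBXO, KLHL and KBTBD, 0.01 for FBXW, -0.04 for ASB, -0.06 for RNF, -0.11 for CUL and -0.21 for TRIM. All 5 FBXL records lay above 0, whereas 8 of 12 TRIM and 24 of 38 RNF records lay below it.

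**Figure D1:**
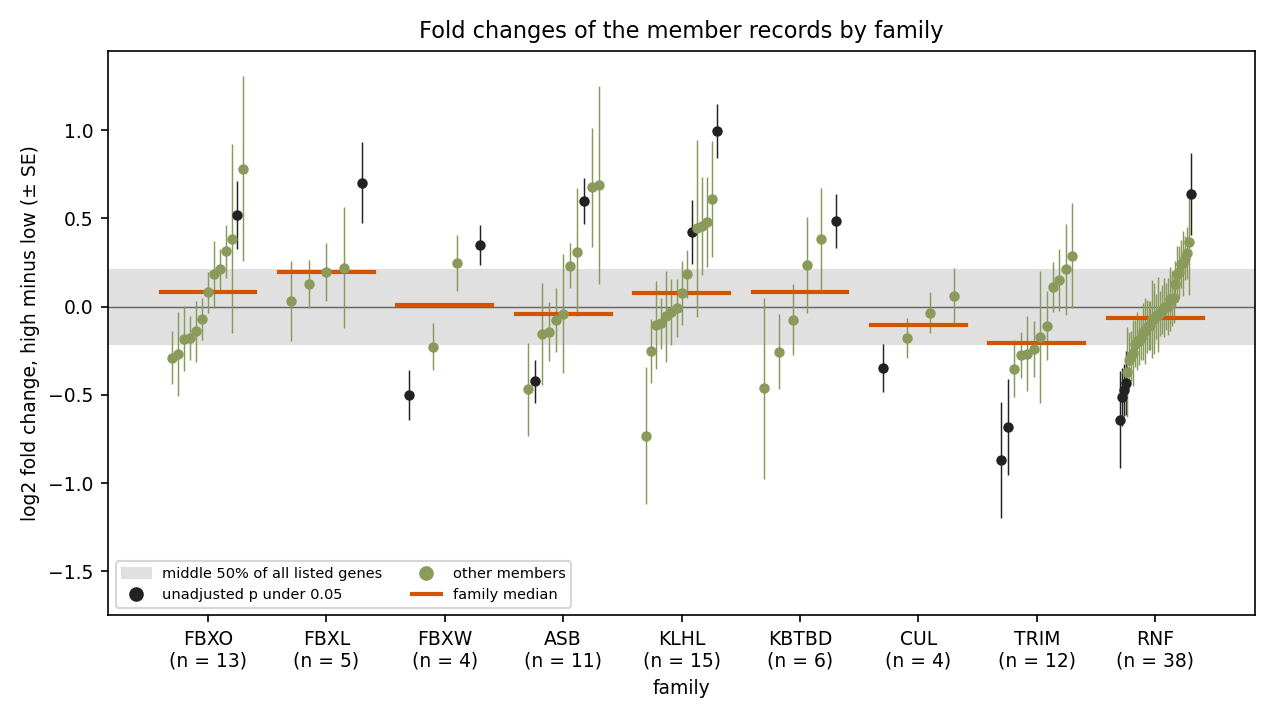
Log2 fold change, high minus low, of each of the 108 records by family, with vertical lines of 1 standard error from edgeR on either side. Black points have an unadjusted p under 0.05, orange lines are family medians, and the grey band holds the middle 50% of all 7661 genes. Most records lie in or near the band, and the extremes are KLHL15 at 0.99 and TRIM5 at -0.87.

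KLHL15, a receptor of CUL3 ligases that acts on a regulatory subunit of the phosphatase PP2A, came nearest to the threshold. The gene lies on chromosome X from 21520481 to 21553996 in the coordinates of the deposited table, for which the sources used here name no genome build. Its deposited CPM was 11.8, 11.2 and 11.7 in the high libraries and 5.66, 6.09 and 5.91 in the low libraries. All 3 high libraries were above all 3 low libraries, and the libraries of each group lay close together. KLHL15 met the listing rule of more than 10 CPM in 3 libraries through the high group alone, the 1 record of the 108 to do so. A gene at this low group's level could not have been listed unless it was higher in the high group, so the rule itself favours this direction and the values are a description. These values rest on 300, 285 and 339 reads in the high and 197, 191 and 178 reads in the low libraries. This is a log2 fold change of 0.99 ± 0.15 (SE, n = 3 per group), a 1.99-fold higher level, with an adjusted p of 0.0706 by edgeR's quasi-likelihood test. DESeq2 gave an adjusted p of 6.33e-07 and the edgeR exact test 0.00224, and over all alternatives the adjusted p lay between 6.33e-07 and 0.248. In the authors' deposited table its log2 fold change was 0.99 once turned to high minus low, with a false discovery rate of 0.00224. Their shorter list of 134 genes, in which the smallest absolute log2 fold change is 1.01, holds 0 of the 108 records.

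Among F-box genes that act in muscle, FBXO32 and FBXO40 varied widely between animals. FBXO32 was at 199, 172 and 302 CPM in the high libraries and at 194, 176 and 36.6 CPM in the low libraries. Low library 3 was far below the other 5, and without it the groups still overlapped, since low libraries 1 and 2 lay above high library 2. Its log2 fold change was 0.78 ± 0.52 (SE, n = 3 per group), with an adjusted p of 0.442 by edgeR, and was 0.35 when low library 3 was left out. FBXO40, a muscle-restricted receptor for the insulin receptor substrate IRS1, was at 229, 183 and 224 CPM in the high and 257, 209 and 40.05 CPM in the low libraries. Again only low library 3 stood apart, and the other 2 low libraries lay within or above the high range. Its log2 fold change of 0.38 ± 0.54 (SE, adjusted p = 0.715 by edgeR) became -0.06 without that library.

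FBXO30 (MUSA1), another F-box protein induced in muscle wasting, was at 40.7, 51.7 and 59.5 CPM in the high and 38.1, 44.0 and 26.1 CPM in the low libraries. The groups overlapped in deposited CPM, because low library 2 lay above high library 1. After TMM normalisation, the scaling between libraries used in the fit, every high library was above every low one. The fitted difference was 0.52 ± 0.19 on the log2 scale (SE), with an adjusted p of 0.223 by edgeR. FBXO21 (SMART) stood at 52.9 ± 1.83 CPM in the high and 50.8 ± 7.35 CPM in the low group (SD, n = 3 each). FBXO31, a receptor for cyclin D1, stood at 59.3 ± 10.1 and 73.6 ± 25.3 CPM. Neither FBXO21 nor FBXO31 differed beyond the spread of the libraries, with adjusted p of 0.719 and 0.561 by edgeR.

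Of the remaining F-box receptors, FBXL20 had the largest fitted difference. It was at 17.7, 20.6 and 16.9 CPM in the high and 13.0, 14.6 and 7.10 CPM in the low libraries, with every high library above every low one. Groups of deposited CPM did not overlap for 17 of the 108 records, 15.7% of them, beside 24.2% of all genes. The high libraries were above the low ones for 7 (10.4% of all genes) and below them for 10 (13.7% of all genes). After TMM normalisation they were above for 14 records (13.5% of all genes) and below for 10 (13.3% of all genes). The log2 fold change of FBXL20 was 0.70 ± 0.23 (SE, adjusted p = 0.184 by edgeR), and 0.49 without low library 3. FBXW2 also had every high library above every low one, at 34.1 ± 1.36 against 27.2 ± 2.81 CPM (SD, n = 3), with a log2 fold change of 0.35. FBXW4 was ordered the other way, at 27.9, 34.4 and 37.4 CPM in the high and 48.9, 46.0 and 47.5 CPM in the low libraries. The fitted log2 value of FBXW4 was -0.50 ± 0.14 (SE), with an adjusted p of 0.152 by edgeR. Its unadjusted p was the smallest among the records that were lower in the high group.

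**Figure D2:**
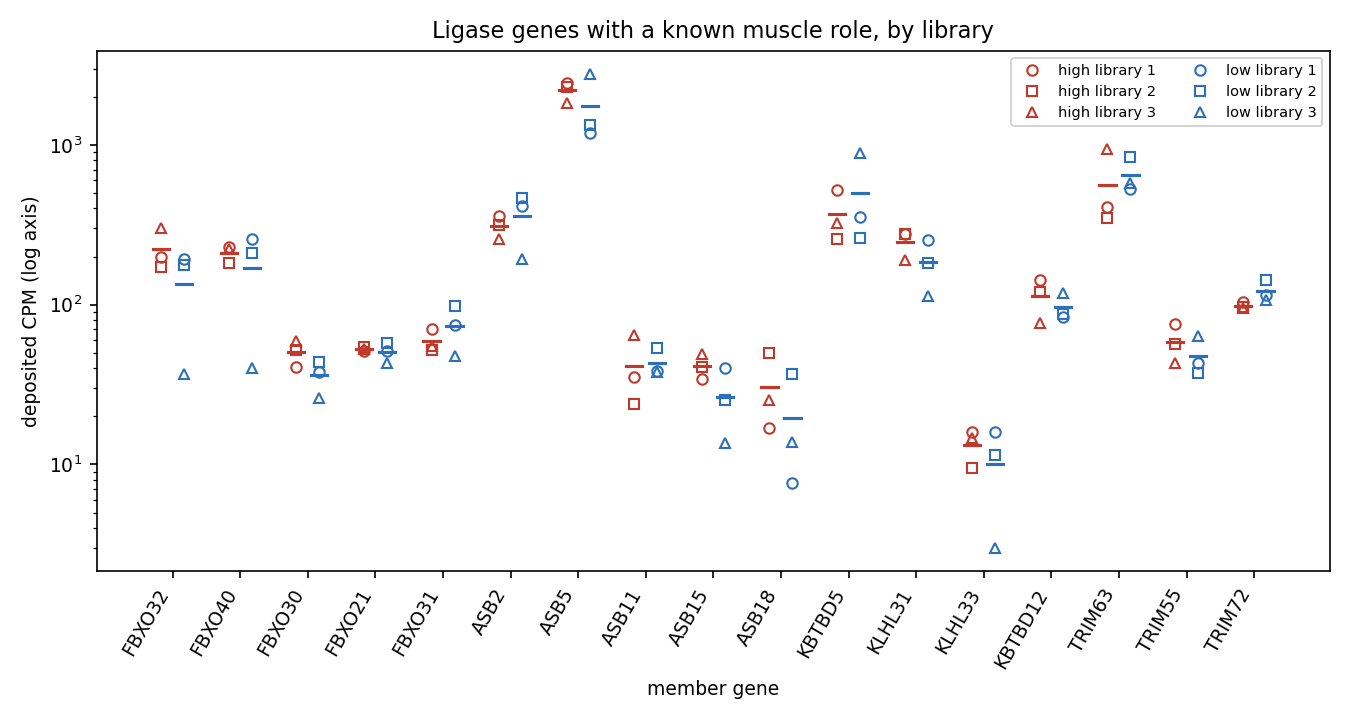
Deposited CPM (log axis) of 17 ligase genes with a known or muscle-enriched role, 1 symbol per library, with horizontal bars at the group means. Low library 3, the blue triangle, is far below the other 5 libraries for FBXO32, FBXO40 and KLHL33, and above them for ASB5 and KBTBD5.

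The ASB family, receptors of CUL5 ligases, had members with tight groups and members with wide ones. ASB4, known from blood vessels and placenta, was at 38.0, 35.2 and 36.6 CPM in the high and 23.3, 29.0 and 21.7 CPM in the low libraries. The groups did not overlap. The difference in log2 was 0.60 ± 0.13 (SE), a 1.51-fold higher level, with an adjusted p of 0.111 by edgeR's quasi-likelihood test and 0.00356 by DESeq2. Over all alternatives the adjusted p of ASB4 ran from 0.00356 to 0.291. ASB8 was ordered the other way without overlap, at 34.1, 33.0 and 34.9 CPM in the high and 50.1, 49.3 and 39.7 CPM in the low libraries. For ASB8 the log2 fold change was -0.42 ± 0.12 (SE), with an adjusted p of 0.157 by edgeR.

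ASB2, which targets filamins and is abundant in muscle, was at 358, 317 and 257 CPM in the high and 414, 464 and 193 CPM in the low libraries. The low libraries held both the highest and the lowest values, so the groups overlapped entirely. ASB5, known from satellite cells, the stem cells of muscle, was at 2439, 2308 and 1831 CPM in the high and 1183, 1333 and 2758 CPM in the low libraries. Here low library 3 was the highest of the 6 and the other 2 low libraries were the lowest. For ASB5 the log2 fold change was 0.31 ± 0.36 (SE, adjusted p = 0.661 by edgeR), and 0.88 without low library 3. ASB15, a muscle-enriched member, was at 34.2, 40.7 and 48.8 CPM in the high and 40.1, 25.2 and 13.7 CPM in the low libraries, with low libraries 2 and 3 below every high library. For ASB15 the log2 fold change was 0.67 ± 0.33 (SE, adjusted p = 0.320 by edgeR), and 0.39 without low library 3. ASB18 ranged from 16.8 to 50.03 CPM in the high and from 7.67 to 36.9 CPM in the low group, at 2.97-fold the widest range of any member within the high group in fold terms. ASB11 had means of 41.2 ± 20.7 and 43.3 ± 8.65 CPM (SD, n = 3).

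Among the BTB-kelch receptors of CUL3, KBTBD5 is the deposited name of the gene that the Ensembl name table calls KLHL40, which stabilises thin-filament proteins of the sarcomere and is mutated in nemaline myopathy. It was at 520.5, 256 and 326 CPM in the high and 353, 262 and 892 CPM in the low libraries. Low library 3 was the highest of the 6, and the other 5 overlapped. The log2 fold change was -0.46 ± 0.51 (SE, adjusted p = 0.641 by edgeR) with all libraries and 0.34 without that one. LMOD3, a thin-filament protein that KLHL40 stabilises, was at 238, 262 and 497 CPM in the high and 237, 237 and 264 CPM in the low libraries. The library with the highest LMOD3 transcript level was thus high library 3, not low library 3. The counts are of RNA, so the level of LMOD3 protein was not measured. Whether LMOD3 protein follows KBTBD5 in these libraries was not tested.

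KLHL31, a muscle-enriched receptor, was at 275, 275 and 189 CPM in the high and 255, 182 and 114 CPM in the low libraries. Low library 3 was again the lowest, and the groups overlapped. KLHL33 was at 15.9, 9.53 and 14.5 CPM in the high and 16.0, 11.4 and 3.02 CPM in the low libraries, so that low library 3 lay well below the rest. KLHL30 was at 51.4, 32.8 and 24.3 CPM in the high and 40.8, 51.0 and 89.0 CPM in the low libraries. Its log2 fold change of -0.73 ± 0.39 (SE, adjusted p = 0.342 by edgeR) was -0.26 without low library 3, the highest of the 6. KBTBD8, a CUL3 receptor known from neural crest specification, had every high library above every low one, at 72.1 ± 12.3 against 52.3 ± 9.40 CPM (SD, n = 3) and a log2 fold change of 0.48. KLHL23 overlapped in deposited CPM, at 19.5 ± 1.85 against 14.9 ± 3.63 CPM. After TMM normalisation every high library of KLHL23 was above every low one. KBTBD12 stood at 113 ± 33.8 against 96.6 ± 19.0 CPM. KLHL9 and KLHL21, which act with CUL3 on Aurora B in dividing cells, had log2 fold changes of 0.08 and -0.11.

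The 4 cullin scaffolds had log2 fold changes between -0.35 and 0.06. CUL1 was at 89.7, 108 and 90.8 CPM in the high and 141, 124 and 106 CPM in the low libraries, where only low library 3 lay inside the high range. After TMM normalisation every low library of CUL1 was above every high one. For CUL1 the log2 fold change was -0.35 ± 0.14 (SE, adjusted p = 0.237 by edgeR). CUL4A was at 131, 130.5 and 132 CPM in the high and 156, 157 and 139 CPM in the low libraries. The groups of CUL4A did not overlap, yet the log2 fold change was only -0.18 and the adjusted p 0.415 by edgeR. CUL2 and CUL9 had log2 fold changes of -0.03 and 0.06, and RNF7, the RING partner of CUL5, had 0.04.

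The TRIM proteins hold the MuRF ligases of the sarcomere. TRIM63 was at 410.3, 347 and 936 CPM in the high and 528, 839 and 579.6 CPM in the low libraries. High library 3 was the highest and high library 2 the lowest of the 6, so the low group lay inside the high one. For TRIM63 the log2 fold change was -0.17 ± 0.38 (SE, adjusted p = 0.825 by edgeR), -0.74 without high library 3 and 0.097 without high library 2. TRIM55 (MuRF2) was at 75.5, 57.05 and 43.05 CPM in the high and 43.1, 37.1 and 63.9 CPM in the low libraries, with overlap. TRIM72 (MG53), which reseals damaged muscle membrane, was lower in every high library than in any low one, at 98.7 ± 4.94 against 122 ± 18.3 CPM (SD, n = 3), a log2 fold change of -0.28 with an adjusted p of 0.301 by edgeR.

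FBXO32 and TRIM63, often read together as markers of wasting, did not keep 1 ratio over the libraries. There were 48.6, 49.5 and 32.3 reads of FBXO32 per 100 reads of TRIM63 in the high libraries and 36.7, 21.0 and 6.31 in the low libraries. The ratio was lowest in low library 3, where FBXO32 was at its lowest and TRIM63 lay in the middle of its range. This is a ratio of read counts without correction for transcript length, so only its change between libraries can be read.

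**Figure D3:**
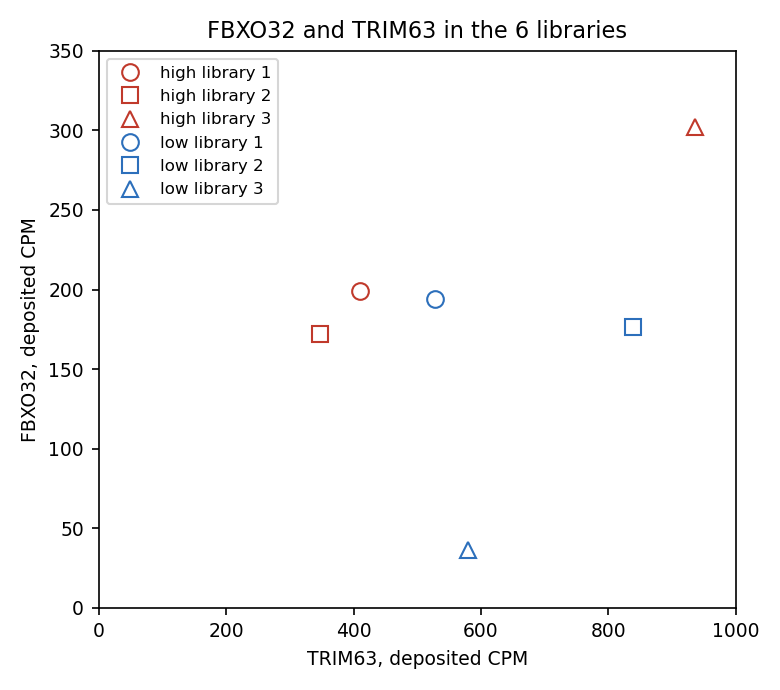
Deposited CPM of FBXO32 against that of TRIM63 in each of the 6 libraries, red for high and blue for low. High library 3 has the highest value of both genes, while low library 3 has the lowest FBXO32 at 36.6 CPM beside 579.6 CPM of TRIM63.

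TRIM5, a restriction factor against retroviruses, had the lowest fitted value of all members. It was at 14.2, 16.7 and 18.0 CPM in the high and 23.1, 20.6 and 44.9 CPM in the low libraries. Every low library was above every high one, with low library 3 far above the rest. The log2 fold change was -0.87 ± 0.33 (SE, adjusted p = 0.228 by edgeR) and -0.35 without low library 3. TRIM66, a member without a RING domain, was at 24.2, 41.4 and 43.5 CPM in the high and 67.9, 73.1 and 37.5 CPM in the low libraries, and low library 3 lay within the high range. Its log2 fold change was -0.68 ± 0.27 (SE, adjusted p = 0.240 by edgeR).

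Beside TRIM5, a list of genes of the interferon response had 15 of 16 matched records below 0, with a median log2 fold change of -0.83. None of them passed edgeR's quasi-likelihood test, and their smallest adjusted p was 0.157, for IRF9. At an unadjusted p under 0.05, 5 of them were lower, beside 8.41% of all genes. Other tests called some of those followed: IRF9 had an adjusted p of 0.0210 by DESeq2 and 0.0175 by the edgeR exact test, and GBP6 and IFI44 had 0.0104 and 0.0417 by the exact test. Over all alternatives the adjusted p ran up to 0.376 for IRF9, 0.414 for GBP6 and 0.477 for IFI44, and IFI44 was chosen after its values were seen. Their summed level was 1153 to 1517 CPM in the high and 1324, 2714 and 2090 CPM in the low libraries. The part of the interferon response in the TRIM5 values was not tested.

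Among RNF genes, RNF31 is the catalytic subunit (HOIP) of the complex that builds linear ubiquitin chains. RNF31 was at 19.5, 20.1 and 21.4 CPM in the high and 31.4, 35.9 and 21.5 CPM in the low libraries. The groups did not overlap, although low library 3 lay only just above high library 3. For RNF31 the log2 fold change was -0.51 ± 0.16 (SE, adjusted p = 0.182 by edgeR). RNF31 is the neighbour of IRF9 on the same strand of chromosome 7, and their spans do not overlap in the deposited coordinates.

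RNF167, a membrane-bound ligase of lysosomes and endosomes, was at 77.1, 75.9 and 69.4 CPM in the high and 89.9, 129 and 95.8 CPM in the low libraries, without overlap of the groups. For RNF167 the log2 fold change was -0.47 ± 0.15 (SE, adjusted p = 0.176 by edgeR). The span of RNF167 overlaps that of PFN1 on the opposite strand by 2931 bases, and PFN1 had a log2 fold change of -0.43. The sources used here do not say whether counting used the strand, so reads from RNF167 and PFN1 cannot be told apart where they overlap. In all, 11 of the 108 records overlap another listed record, 10 of them on the opposite strand, KLHL9, KLHL21 and KLHL28 among these. For KLHL9 and KLHL21 the overlaps of 1854 and 10195 bases cover the whole span. For RNF139 the other record has the same name in the Ensembl name table. RNF41 and RNF39 overlap ERBB3 and C7H6ORF12 on the same strand by 25524 and 8638 bases, where strand would not separate the reads. RNF41, RNF39 and RNF139 were named for these overlaps.

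RNF217 was at 14.9, 30.1 and 18.8 CPM in the high and 14.8, 14.2 and 12.2 CPM in the low libraries. High library 2 was well above the rest, and high library 1 was barely above low library 1. For RNF217 the log2 fold change was 0.64 ± 0.23 (SE, adjusted p = 0.217 by edgeR), and 0.34 without high library 2. RNF149 was at 11.0 ± 1.76 CPM in the high and 15.1 ± 2.84 CPM in the low group (SD, n = 3), with overlap. RNF19B, chosen after its values were seen, was at 32.0, 30.2 and 32.3 CPM in the high and 32.1, 48.4 and 67.3 CPM in the low libraries. Its log2 fold change of -0.64 was -0.27 without low library 3. The 2 records of RNF20, which cannot be told apart by name, had log2 fold changes of -0.11 and -0.20.

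Low library 3 stood apart from the other libraries more often than any of them did. It lay at least 1.5-fold below every other library for 10 records, 9.26% of them, where this held for 5.22% of all genes. These records were FBXO32, FBXO40, KLHL33, KLHL28, KBTBD3, KLHL24, ASB15, FBXL20, TRIM23 and KLHL31, some of them named after their values were seen. The gap was 4.69-fold for FBXO32, 4.56-fold for FBXO40 and 3.16-fold for KLHL33, and between 1.60-fold and 2.17-fold for the rest. Low library 3 lay at least 1.5-fold above every other library for TRIM5, KLHL30 and KBTBD5, 2.78% of the records, beside 1.1% of all genes. It was the lowest of the 6 libraries for 48 records, 44.4%, beside 33.5% of all genes. Each other library lay that far outside the rest for 3 records at most. High library 3 was above for FBXO32 and RNF144B (0.679% of all genes) and below for RNF6 (0.522%), of which RNF144B and RNF6 were named after their values were seen. High library 1 was below for TRIM66 (0.405%), high library 2 above for RNF217 (0.509%) and low library 1 below for ASB18 (0.809%). For the remaining cases no ligase gene was found, beside 0.157% of all genes above in high library 1, 0.222% below in high library 2, 0.209% above in low library 1, and 0.705% below and 1.07% above in low library 2. Whether the high share among the ligase genes differs from that of all genes beyond chance was not tested.

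**Figure D4:**
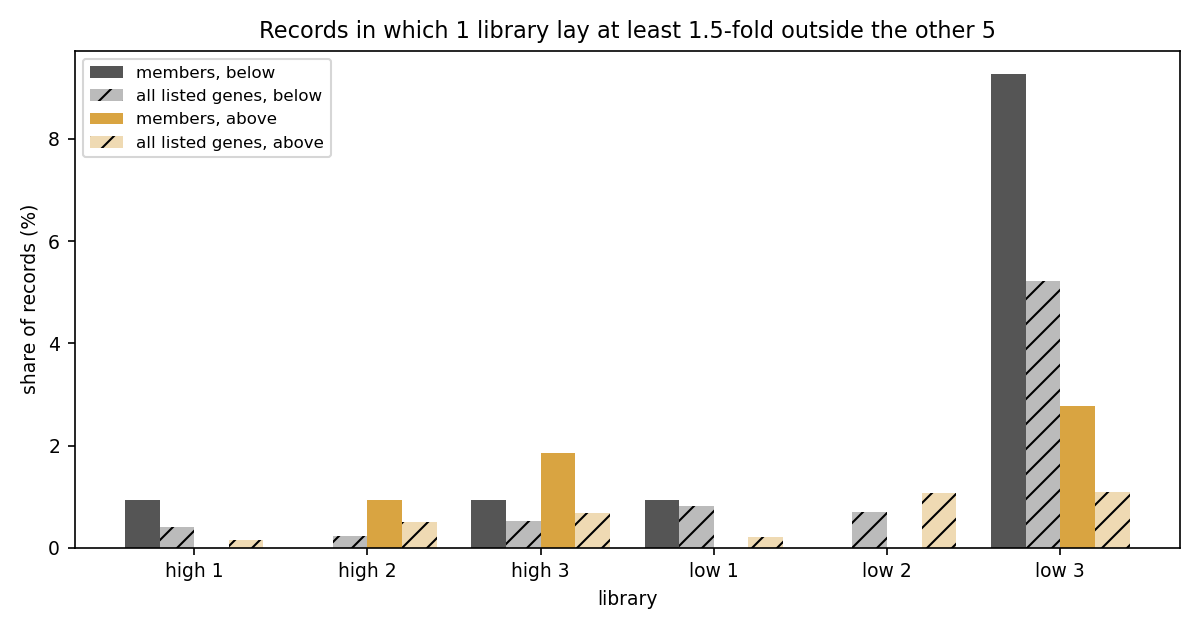
Share of records in which 1 library lay at least 1.5-fold below (grey) or above (yellow) each of the other 5 in deposited CPM, for the 108 ligase records (solid) and for all 7661 genes (hatched). Low library 3 has the tallest bars, 9.26% of the ligase records below and 2.78% above.

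Within the low group the highest library was at least 2-fold above the lowest for 19 records, 17.6%, beside 10.6% of all genes. Within the high group this held for 9 records, 8.33%, beside 4.31% of all genes. These counts use deposited CPM, in which the median ratio of highest to lowest library was 1.44 for the records and 1.37 for all genes in the low group. In the high group it was 1.26 and 1.24. The median SD of log2 TMM-normalised CPM was 0.21 for the records and 0.21 for all genes in the low group, and 0.16 and 0.15 in the high group. The widest ranges in fold terms were those of FBXO40, FBXO32 and KLHL33 in the low group, and of ASB18, TRIM63 and ASB11 in the high group.

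The fold changes moved with the length of the gene in the genome, among the ligase genes as among all genes. The deposited span, from the start to the end of a gene with its introns, had a median of 27.7 kb for the records and 21.7 kb for all genes. The 28 records with a span of at least 50 kb had a median log2 fold change of 0.20, and 20 of them lay above 0. All genes of that length had a median of 0.16. The 21 records shorter than 10 kb had a median of -0.11, and all genes of that length had -0.17. Spearman's rho between span and log2 fold change was 0.35 over the 108 records and 0.41 over all genes, a description across genes that share the 6 libraries. By family, rho was 0.57 for RNF, 0.63 for ASB and 0.58 for TRIM. It was -0.00056 over the 22 F-box records, 0.09 over the 21 KLHL and KBTBD records and -0.2 for the 4 CUL records. The part of gene length in the member values was not tested.

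The rest of the ubiquitin system was read from lists of named genes, and none of their genes passed edgeR's quasi-likelihood test. The list of ubiquitin genes and activating enzymes had 3 of 7 matched records above 0 and a median log2 fold change of -0.09. Among the 7, UBA2 (0.29) and SAE1 (-0.09, the median) activate the ubiquitin-like protein SUMO, not ubiquitin. UBB, a polyubiquitin gene, was at 977, 941 and 1079 CPM in the high and 1084, 1187 and 1713 CPM in the low libraries. Every low library was above every high one, low library 1 only just, and the log2 fold change was -0.41 with an adjusted p of 0.373 by edgeR, and -0.11 without low library 3. The E2 conjugating enzymes had 11 of 22 records above 0 and a median of -0.0053, and 1 had an unadjusted p under 0.05, beside 18.7% of all genes. The list of cullin adaptors and neddylation genes had 5 of 15 above 0 and a median of -0.06. It mixes genes that switch cullins on by neddylation with COPS subunits, which reverse that step, and with the cullin-binding CAND1 and CAND2.

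The proteasome list had 26 of 32 matched records below 0, with a median of -0.12. It holds subunits and activators of the proteasome and also VCP, which is neither. At an unadjusted p under 0.05, 3 of them were lower, beside 8.41% of all genes. PSMD13 and PSMA7, subunits of the lid and the core, had log2 fold changes of -0.40 and -0.34 with adjusted p of 0.209 for both by edgeR. The groups did not overlap for 13 of the 32, with every low library above every high one, beside 13.7% of all genes. The 32 records had a median span of 15.1 kb, and the part of gene length was not tested. PSME4, a proteasome activator, had the highest fitted value of the list, 0.35, but 0.011 without high library 3. Deubiquitinases, which remove ubiquitin, had 24 of 48 records above 0. At an unadjusted p under 0.05, 3 were higher (10.3% of all genes) and 2 lower (8.41% of all genes). OTUD1 was at 409, 454 and 357 CPM in the high and 79.9, 181 and 267 CPM in the low libraries. The groups of OTUD1 did not overlap, and its log2 fold change of 1.21 ± 0.40 (SE) had an adjusted p of 0.193 by edgeR's quasi-likelihood test and 0.0328 by DESeq2. Over all alternatives that of OTUD1 ran from 0.0224 to 0.418.

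Ubiquitin ligases under other symbols had 36 of 52 matched records above 0 and a median of 0.19. Not all are of other families: KEAP1 and IVNS1ABP are BTB-kelch proteins and BTRC is an F-box protein. At an unadjusted p under 0.05, 9 were higher (10.3% of all genes) and 3 lower (8.41% of all genes). The 52 records had a median span of 52.9 kb, and the part of gene length was not tested. SPOPL, a CUL3 receptor, and HECTD2, a HECT ligase, had log2 fold changes of 0.64 and 0.63 with adjusted p of 0.131 and 0.179 by edgeR, while MUL1, a ligase of the mitochondrial outer membrane, had -0.76 with 0.154. DESeq2 called SPOPL and MUL1, with adjusted p of 0.0147 and 0.0360, and over all alternatives these ran up to 0.336 and 0.392. Transcription factors and other regulators of muscle wasting had 14 of 23 records above 0 and a median of 0.05. NR3C1, the glucocorticoid receptor, was at 83.0, 86.5 and 74.6 CPM in the high and 63.8, 61.4 and 33.9 CPM in the low libraries, a log2 fold change of 0.65 with an adjusted p of 0.183 by edgeR. MYOG (myogenin), which can drive FBXO32 and TRIM63 after denervation, was at 12.7, 23.3 and 9.97 CPM in the high and 36.9, 38.7 and 34.8 CPM in the low libraries. The groups of MYOG did not overlap, and its log2 fold change of -1.26 ± 0.28 (SE) had an adjusted p of 0.111 by edgeR's quasi-likelihood test, 0.00157 by DESeq2 and 0.00153 by the edgeR exact test. Its adjusted p was at most 0.238 in any alternative. Substrates and partners of the muscle ligases had 9 of 16 records above 0 and a median of 0.04.

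**Figure D5:**
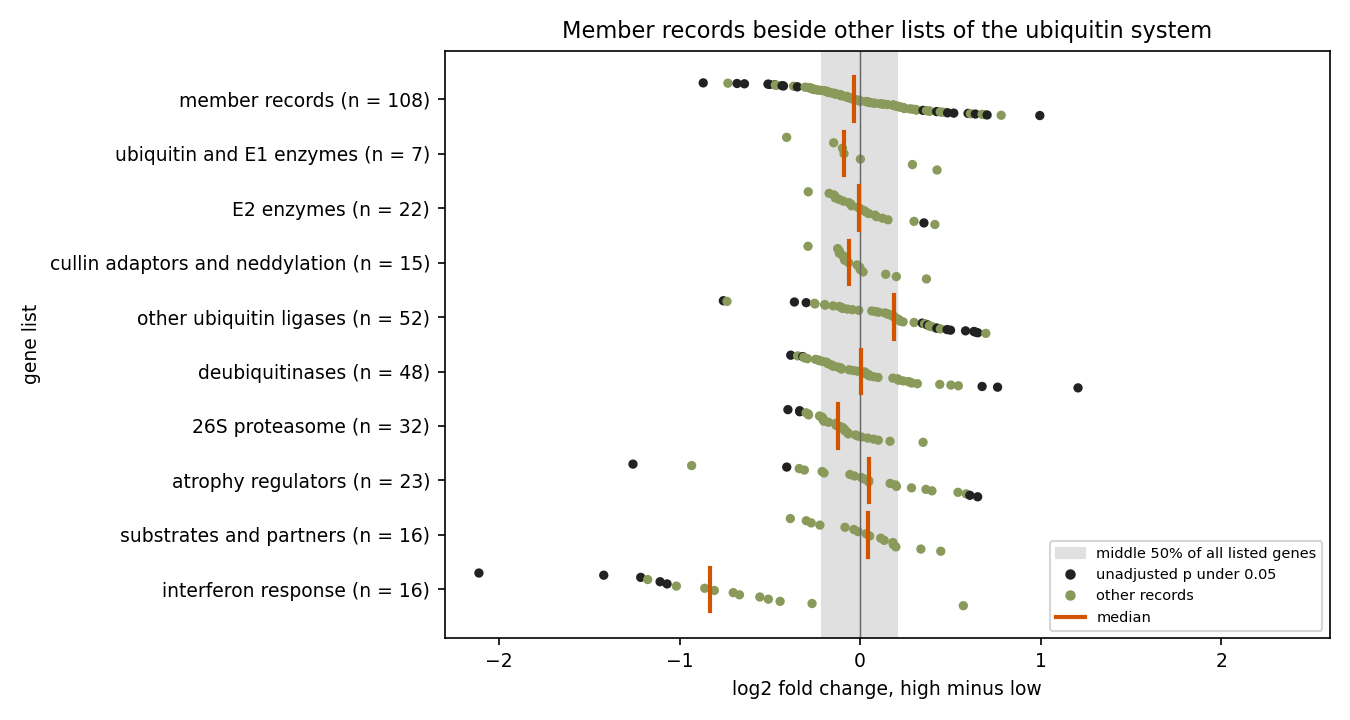
Log2 fold change, high minus low, of each record in the ligase families and in 9 lists of related genes, 1 point per record, with black points at an unadjusted p under 0.05, orange lines at the medians and a grey band over the middle 50% of all genes. The ligase families centre at -0.04, the other ubiquitin ligases at 0.19, the proteasome at -0.12 and the interferon response at -0.83.

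The deposited table leaves 1244 records without a symbol, and 14 of these carry a name of the same families in the Ensembl name table. They fall outside the naming rule and were kept apart. Of the 14, 10 lay above 0, with a median log2 fold change of 0.06, and none passed the test by edgeR. At an unadjusted p under 0.05, 2 were higher (10.3% of all genes) and 0 lower (8.41% of all genes). The cullin partners of the receptors above are among them: CUL3 had a log2 fold change of 0.15 and CUL5 of 0.40, with adjusted p of 0.558 and 0.349 by edgeR. Without low library 3 the value of CUL5 was 0.22, and without low library 1 it was 0.65. FBXW7, a receptor for cyclin E and MYC, was at 34.6, 41.6 and 28.7 CPM in the high and 20.7, 26.3 and 20.1 CPM in the low libraries. The groups of FBXW7 did not overlap, and its log2 fold change was 0.67 ± 0.16 (SE), with an adjusted p of 0.118 by edgeR's quasi-likelihood test and 0.0101 by DESeq2. Its adjusted p was at most 0.342 in any alternative. CUL3, CUL5 and FBXW7 were chosen after their values were seen.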

How the data were processed

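RNA from 3 high and 3 low longissimus samples was analysed. The submitters' processing notes name TopHat2 2.0.4, BWA 0.6.2, Trimmomatic 0.22 and FastQC 0.10.1. The sources used here do not give the genome build, annotation, read counter or strand setting. The authors deposited whole-number read counts and CPM per library, the CPM being counts scaled to library totals. Beside these stand log2 fold changes, p-values and false discovery rates that the authors computed, per the file headers.

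Counts were fitted over all 7661 genes with edgeR 4.0.16 (R 4.3.3): TMM factors, filterByExpr, which kept every gene, and the quasi-likelihood F-test on group alone, with a Benjamini-Hochberg threshold of 0.05. The standard error is the absolute log2 fold change over the square root of F. Levels are deposited CPM, mean ± SD over 3 libraries. Overlap of the groups was read on deposited CPM unless TMM normalisation is named. DESeq2 1.42.0, the edgeR exact test and other settings served as alternatives, and the fit was tested on simulated data. Named genes were the 8 records per direction with the smallest p, 1 per family and direction, genes with a known muscle role, the cullins, RNF7, and up to 2 per direction of each related list. The members and lists were chosen with earlier results of these data known. Unmatched list genes were not analysed here, and some single-gene results are not reported here. Symbols were checked against an Ensembl name table, which gave the same symbol for 90 of the 108 records, none for 14 and another for 4 (KBTBD5, FBXO18, KLHL12 and TRIM3). An exact permutation test on 3 against 3 libraries has a smallest p of 0.1, so none was run.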

Additional observations from a re-analysis of the deposited data

How the results depend on the processing

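The count of 0 records past the threshold was also found with DESeq2 size factors, with no filter, with a mean CPM of at least 20, with the replicate number as a block, with an older quasi-likelihood method that was added after seeing the data, and with any 1 library left out. DESeq2 called 2 (6.76% of all genes) and the edgeR exact test 1 (4.12% of all genes). A threshold of 0.1 called 1, and the share of all genes at that threshold was not counted. The count of records higher at an unadjusted p under 0.05 was 4 at a mean CPM of at least 20, which tests fewer genes, and 5 to 13 with 1 library left out, 5 without high library 2 and 13 without low library 1. The count of lower records was 4 to 10, 4 without high library 2 and 5 without low library 2. Shares of all genes were not counted in these refits, and the cause of the shifts was not tested. The median log2 fold change lay between -0.05 and 0.0053 with 1 library left out.

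Of 85 genes followed, 11 turned direction with 1 library left out, and 11 passed the threshold under another test: KLHL15, USP34, OTUD1, MYOG and IRF9 by DESeq2 and the exact test, ASB4, SPOPL, MUL1 and FBXW7 by DESeq2 alone, and GBP6 and IFI44 by the exact test alone. With 1 library left out, the log2 fold change ran from -0.51 to 0.25 for ASB11, -0.42 to 0.026 for ASB2, -0.062 to 0.012 for CUL2, -0.043 to 0.12 for CUL9, -0.065 to 0.86 for FBXO40, -0.82 to 0.34 for KBTBD5, -0.36 to 0.13 for KLHL21, -0.037 to 0.20 for KLHL9, -0.11 to 0.19 for RNF7, -0.035 to 0.43 for TRIM23 and -0.74 to 0.097 for TRIM63. Among all 108 records, 74 kept 1 direction in every alternative.

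Samples with the same replicate number did not deviate together, with correlations of 0.11, 0.039 and -0.073 across genes, so the numbers were not taken as pairs. With the replicate block, none of these 85 genes turned direction, and the counts of higher and lower records were 8 and 7.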
